A study of Mus musculus with 4 samples.

Results

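The TRIM genes encode tripartite motif proteins, most of which are ubiquitin ligases, and their RNA levels were measured by sequencing in subcutaneous white fat of the mouse. The genes were chosen as all rows of the protein-coding expression table named Trim followed by digits and at most one letter, and averaging 1 FPKM or more across 4 libraries. FPKM is a fragment number scaled to transcript length and library size, so levels of different genes can be set side by side. Of 67 rows with such a name among 21899 rows, 38 met the minimum, and these 38 were among the 12345 rows tested. The 2 libraries of 1 group were labelled miR-203 inhibitor, a reagent designed to block the microRNA miR-203, and the 2 libraries of the other group were labelled negative control. Each library held the pooled RNA of 3 animals, so its spread is one between pools. The sources used here give no strain, genotype, age, sex, dose, route or duration.

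A typical TRIM protein carries a RING finger that binds a ubiquitin-conjugating enzyme, then B-box zinc fingers and a coiled coil through which the protein pairs with itself. Its C-terminal end selects the target, in the largest subfamily through a PRY-SPRY domain. Many TRIM proteins act in antiviral defence, either by binding viral parts or by adding ubiquitin to the sensors and adaptors that switch on interferon genes, and several TRIM genes are themselves switched on by interferon. Mouse chromosome 7 carries a cluster of related PRY-SPRY genes around Trim5 and the rodent Trim30 genes.

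The promoters of that cluster are shown first, since the genes that changed most lie there. RefSeq promoter sequences on GRCm38.p6, which run from 250 bases before to 50 after a transcription start, were found for 29 of the 38 genes. They were searched on both strands for an interferon-stimulated response element (ISRE), written here as GAAANNGAAA, which reads TTTCNNTTTC on the other strand. The lines below give the stretch around the match, 5′ to 3′ on the strand of the gene and ending no later than the base before the start, with the match in capitals.
Trim30a, chr7:104465195-104465254, minus strand: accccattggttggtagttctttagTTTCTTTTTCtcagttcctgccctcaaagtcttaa
Trim30d, chr7:104507856-104507915, minus strand: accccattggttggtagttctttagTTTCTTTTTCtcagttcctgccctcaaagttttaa
Trim12c, chr7:104353350-104353403, minus strand: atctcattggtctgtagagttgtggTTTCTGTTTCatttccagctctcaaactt
Trim5, chr7:104288121-104288180, minus strand: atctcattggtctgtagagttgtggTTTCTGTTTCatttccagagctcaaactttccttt
The Trim30a and Trim30d stretches had the same base at 59 of 60 positions. The Trim5 and Trim12c stretches had the same base at 52 of 54 positions, and both held the same match.

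The motif was in 9 of those 29 genes (31%), against 4.05% of the 9342 tested genes with a promoter sequence and 3.99% of all 27025 genes in the promoter table. Beside the 4 genes above, matches upstream of the start were found in Trim26, where 2 of them overlapped, and Trim30a had a further match at another annotated start. Matches that lay in the first transcribed bases were found in Trim12a, Trim21, Trim34a and Trim2. Among the 8 TRIM genes that rose in the inhibitor libraries, described below, 5 held the motif (62.5%), against 22.1% of the 303 risen genes of the whole table with a promoter sequence. Of the 21 TRIM genes with a promoter sequence that were not called, 4 held it (19.0%), Trim5 among them. Near-copy promoters of the cluster were each counted in these shares, though they are not independent cases. The gamma-activated site, TTCNNNGAA, was in 1 of the 29 genes, Trim30c, against 8.50% of the tested genes. It is shown in the same way, since Trim30c had the highest fold change of the family.
Trim30c, chr7:104400807-104400865, minus strand: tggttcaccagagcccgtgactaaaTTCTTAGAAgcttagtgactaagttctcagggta
A match is a string of letters, and binding was not measured.

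In the inhibitor libraries 8 genes of the family were higher, namely Trim30a, Trim30b, Trim30c, Trim30d, Trim12a and Trim12c of the chromosome 7 cluster, and Trim21 and Trim25 outside it. Log2 differences are inhibitor minus control on the log2(FPKM + 1) scale, with their SE. The fold changes of mean FPKM ran from 1.97 for Trim12a to 5.50 for Trim30c. With limma and Benjamini-Hochberg adjustment over all 12345 rows, 8 of 38 TRIM genes (21.1%) passed an adjusted p of 0.05 as higher, against 3.22% of all rows. As lower, 0 of 38 passed with limma, against 0.267% of all rows, and Trim3 was the one TRIM gene with a negative change and an unadjusted p under 0.05. Among all rows tested, 397 were higher and 33 lower, or 92.3% of calls higher, and 78.0% with quantile normalization. The median log2 difference over the 38 genes was 0.18, against 0.07 over all rows tested. Both inhibitor values lay above both control values in 17 of the 38 genes, against 33.1% of all rows, and below them in 3, against 19.1%. Without inhibitor 1 and without inhibitor 2 limma called 0 rows of the whole table, while all 8 genes kept an unadjusted p under 0.05 and log2 differences of 0.93 to 2.13 and of 0.98 to 1.82. With no minimum on the mean, 3 of the 8 passed, namely Trim25, Trim30a and Trim30d.

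**Figure D1:**
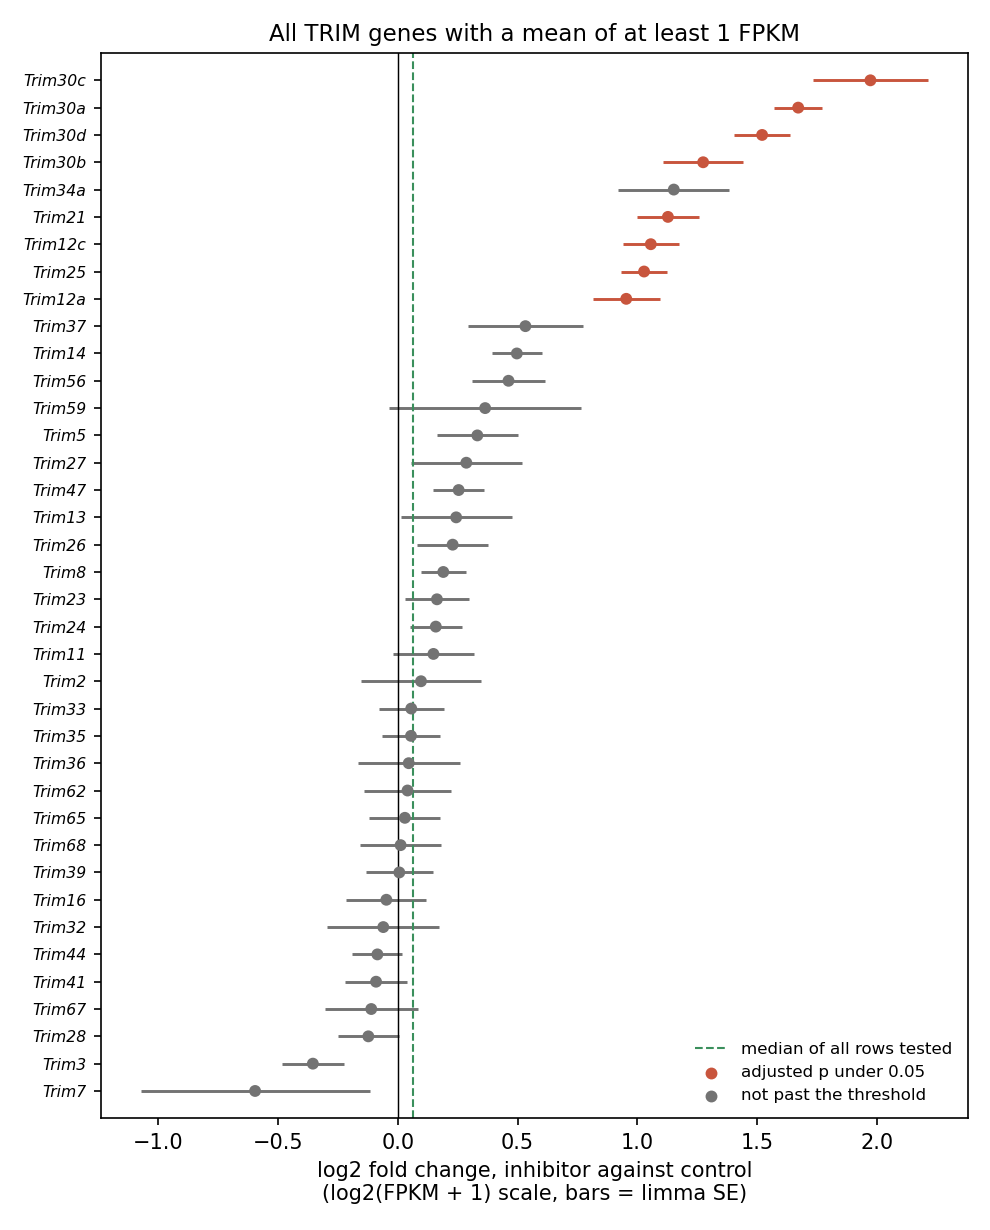
Log2 difference, inhibitor against control, on the log2(FPKM + 1) scale for each of the 38 TRIM genes, with bars for the SE from limma and a dashed line at the median of all rows tested. The 8 genes past the threshold lie between 0.95 and 1.97, and Trim34a, at 1.15, lies among them without passing.

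The cluster occupies 289057 bases of chromosome 7 (GRCm38, 104218793 to 104507849) and holds 10 protein-coding genes, all of them TRIM genes. Of these, 8 reached the minimum level and 6 of the 8 rose. Trim30a, which in the mouse restrains NF-kB signalling from Toll-like receptors by removing the TAB2 and TAB3 adaptors, had the highest mean of the TRIM genes over all 4 libraries. By the control mean Trim30a came after Trim28, Trim14 and Trim8. It had 24.9 and 24.8 FPKM in control 1 and control 2 and 76.2 and 86.4 FPKM in inhibitor 1 and inhibitor 2. The control values almost coincided, and the inhibitor mean was 3.28-fold above theirs. The log2 difference was 1.67 ± 0.10 (SE, adjusted p = 0.00812). Trim30d, whose promoter stretch is the near copy of that of Trim30a, had 11.7 and 13.6 FPKM under negative control and 36.9 and 39.4 FPKM under the inhibitor, a log2 difference of 1.52 ± 0.12 (adjusted p = 0.00812). The FPKM ratio of Trim30d to Trim30a was 0.471 and 0.550 in control libraries and 0.484 and 0.456 in the inhibitor libraries, and these ranges overlapped.

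Trim30b and Trim30c had lower levels than their neighbours. Trim30b had 4.25 and 5.19 FPKM under negative control and 11.5 and 14.2 FPKM under the inhibitor, a log2 difference of 1.27 ± 0.17 (adjusted p = 0.0237). Trim30c had 1.25 and 2.29 FPKM under negative control and 8.60 and 10.9 FPKM under the inhibitor. The Trim30c groups were far apart, and its 2 control values differed more from each other, relative to their mean, than those of the other Trim30 genes. Its log2 difference was 1.97 ± 0.24 (adjusted p = 0.0198), the highest of the family, and 2.44 with a pseudocount of 0.1. The FPKM ratio of Trim30c to Trim30a was 0.0504 and 0.0926 in control libraries and 0.113 and 0.126 in the inhibitor libraries, so that the inhibitor ratios were both above the control ratios. The difference in that ratio was not tested.

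Trim12a, Trim12c and Trim5 are the mouse relatives of human TRIM5, whose product binds the capsid of incoming retroviruses. Trim12a had 21.4 and 16.8 FPKM under negative control and 38.4 and 37.0 FPKM under the inhibitor, a log2 difference of 0.95 ± 0.14 (adjusted p = 0.0321). Trim12c had 9.40 and 8.44 FPKM under negative control and 19.3 and 19.9 FPKM under the inhibitor, a log2 difference of 1.06 ± 0.12 (adjusted p = 0.0159). For both genes the groups were separate, and without the mean-variance trend in the fit Trim12a was the 1 gene of the 8 that did not pass. Trim5 had 3.75 and 3.02 FPKM under negative control and 4.26 and 4.74 FPKM under the inhibitor, a log2 difference of 0.33 ± 0.17 with a 95% interval from -0.10 to 0.76 (adjusted p = 0.363). The Trim5 values were separate too, by a small margin. The FPKM ratio of Trim12c to Trim5 was 2.51 and 2.80 in control libraries and 4.53 and 4.20 in the inhibitor libraries, a difference that was not tested.

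Trim34a, related to human TRIM34, which also acts on retroviral capsids, had 14.6 and 8.80 FPKM under negative control and 26.0 and 27.0 FPKM under the inhibitor. The inhibitor values were close together and above both controls, while the controls differed widely. The log2 difference was 1.15 ± 0.23 and did not pass (adjusted p = 0.0728). It was 1.49 without control 1 and 0.81 without control 2. In those fits the residual spread rests on the inhibitor libraries alone, so the wide difference between the controls is not counted. Trim6, the outermost gene of the cluster, lay just under the minimum with 0.485 and 0.336 FPKM under negative control and 1.61 and 1.37 FPKM under the inhibitor. In a fit with no minimum it had a log2 difference of 0.82 ± 0.12 (adjusted p = 0.0929). Trim34b, the tenth gene, had 0.309 to 0.967 FPKM over the 4 libraries.

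**Figure D2:**
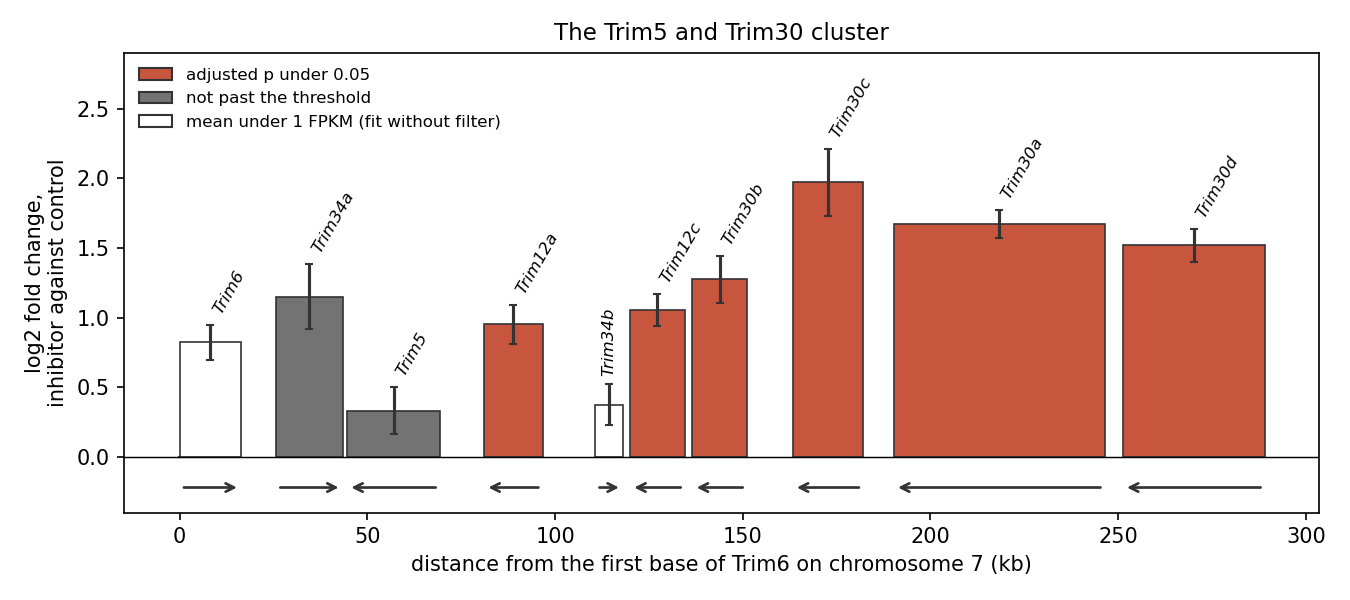
Log2 difference, inhibitor against control (log2(FPKM + 1) scale, bars for the SE from limma), of the 10 genes of the chromosome 7 cluster at their position in kb from the start of Trim6, with arrows for the direction of transcription. The 4 Trim30 genes stand together at one end with 1.27 to 1.97, and Trim5, at 0.33, has the lowest bar of the 8 genes that reached the minimum.

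Near copies limit how far reads can be assigned within the cluster. Of all 50-base stretches in the longest coding transcript of Trim34a, 41.3% occurred unchanged in Trim34b. The share found in any other gene was 38.1% for Trim5, 32.7% for Trim12c and 23.6% for Trim12a, mostly within this group of 3. It was 6.53% for Trim30a, 8.29% for Trim30d, 0.991% for Trim30b and 0.660% for Trim30c. The separate values of Trim34a, Trim5, Trim12a and Trim12c are therefore uncertain, and less so those of the Trim30 genes. The summed level of the 8 genes is less affected by sharing within the cluster: it was 91.3 and 82.9 FPKM under negative control and 221.1 and 239.5 FPKM under the inhibitor. The cluster made up 18.8% and 19.1% of the summed FPKM of all 38 TRIM genes in control libraries and 34.8% and 35.1% in the inhibitor libraries. The other 30 genes summed to 393.3 and 350.1 FPKM under negative control and to 415.1 and 442.7 FPKM under the inhibitor.

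**Figure D3:**
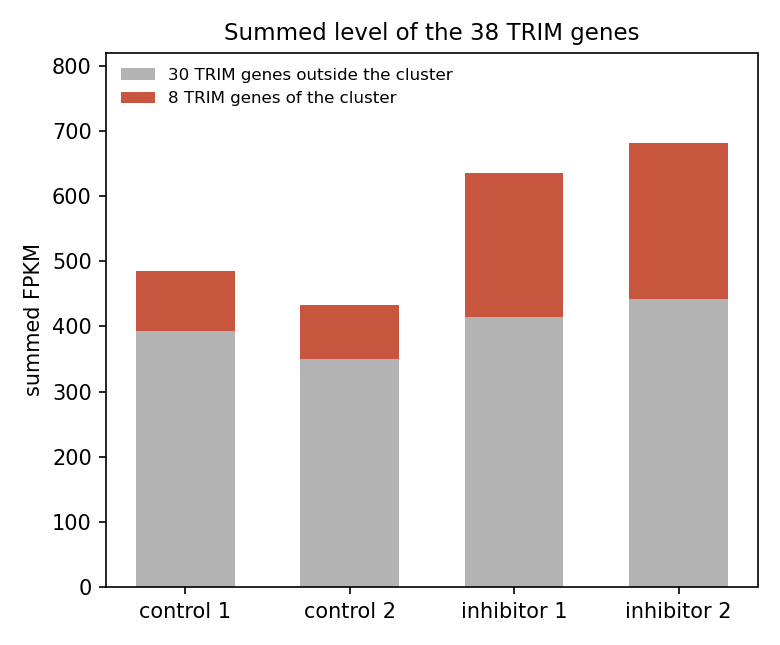
Summed FPKM of the TRIM genes in each library, with the 8 genes of the chromosome 7 cluster stacked on the 30 genes outside it. The cluster part grew from 91.3 and 82.9 FPKM in the controls to 221.1 and 239.5 FPKM under the inhibitor.

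Outside the cluster, 2 genes rose, both with known parts in the recognition of viruses. Trim25, on chromosome 11 at 88999376 to 89020293, encodes a ligase described as adding ubiquitin chains to the RNA sensor RIG-I. It had 20.1 and 20.6 FPKM under negative control and 41.1 and 44.1 FPKM under the inhibitor, a log2 difference of 1.03 ± 0.10 (adjusted p = 0.0116). Trim21, on chromosome 7 at 102557921 to 102565486 and apart from the cluster, encodes a cytosolic antibody receptor that sends antibody-coated viruses to the proteasome. Its 6.94 and 7.06 FPKM under negative control and 15.3 and 17.8 FPKM under the inhibitor gave a log2 difference of 1.13 ± 0.13 (adjusted p = 0.0174). In both genes the control values lay closer together than the inhibitor values, and the groups were far apart.

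Of 16 genes of the family listed here as interferon-induced or antiviral, 13 reached the minimum level, and all 8 risen genes were among these 13. The list was drawn up with earlier results of these data known, so this overlap is not a test. Over all rows tested, 3.22% were called higher. The median log2 difference of the 13 was 1.06. The 5 that did not pass were Trim34a and Trim5, given above, and Trim14, Trim56 and Trim26. Trim14, an adaptor of the mitochondrial antiviral platform MAVS that lacks the RING finger, had a mean of 33.3 FPKM in the controls, below Trim28 and above Trim30a. It had 32.1 and 34.5 FPKM under negative control and 44.9 and 50.1 FPKM under the inhibitor, a log2 difference of 0.50 ± 0.10 (adjusted p = 0.0791). Trim56, which modifies the DNA sensing path of cGAS and STING, had 4.73 and 4.33 FPKM under negative control and 6.13 and 7.13 FPKM under the inhibitor, a log2 difference of 0.46 ± 0.15 (adjusted p = 0.193). Both had separate groups but missed the threshold. Trim26, which lies in the major histocompatibility region, had 23.8 and 18.7 FPKM under negative control and 23.5 and 26.5 FPKM under the inhibitor. These values overlapped. Its promoter stretch is shown with 1 of its overlapping ISRE matches in capitals.
Trim26, chr17:36836961-36837020, plus strand: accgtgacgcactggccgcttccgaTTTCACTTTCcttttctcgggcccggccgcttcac

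**Figure D4:**
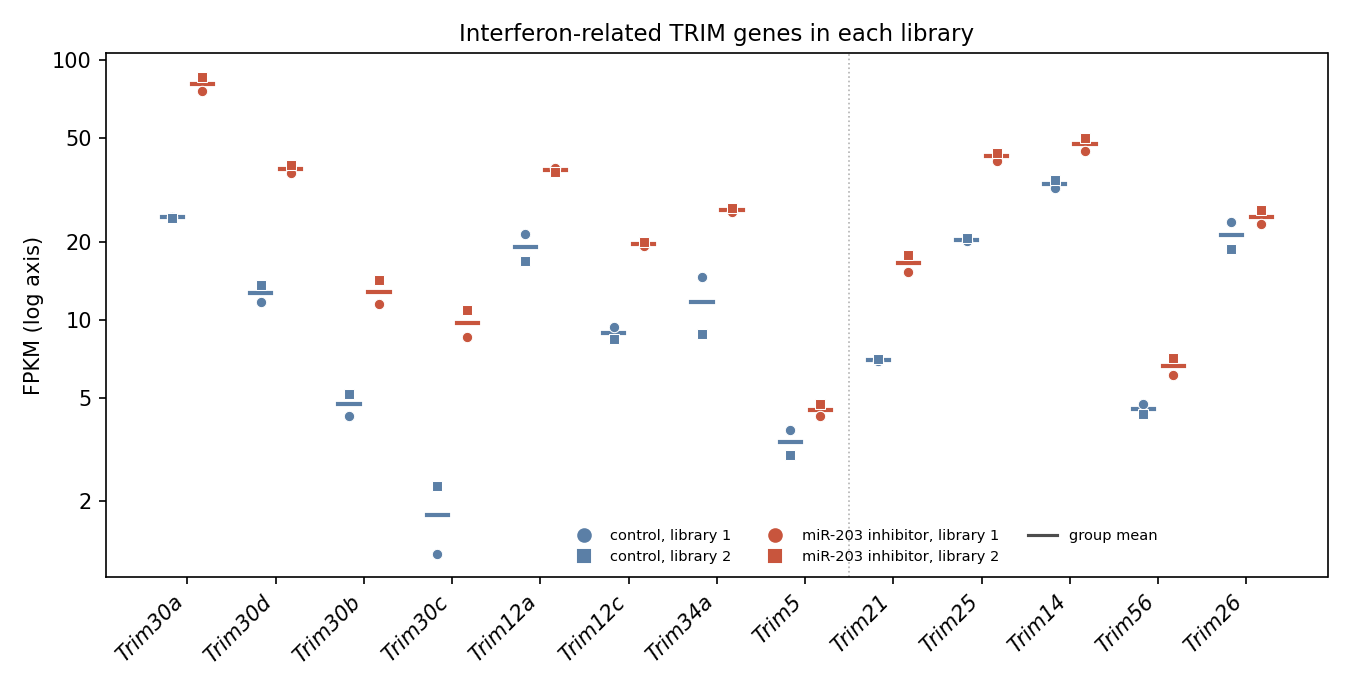
FPKM on a log axis of 13 TRIM genes in each of the 4 libraries, with circles for library 1, squares for library 2 and lines for the group means; genes left of the dotted line lie in the chromosome 7 cluster. The inhibitor values lie above the control values in every gene shown except Trim26, by a narrow margin in Trim5 and by the widest in Trim30c.

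The remaining 25 TRIM genes had a median log2 difference of 0.05, against 0.07 over all rows tested. With limma 0 of them passed, against 3.22% of all rows called higher and 0.267% called lower, while 1, Trim3, had an unadjusted p under 0.05. These 25 are the genes off the list above, which was drawn up with earlier results known. Among them 5 had separate groups with the inhibitor higher, against 33.1% of all rows, and 3 with the inhibitor lower, against 19.1%, so neither share was above that of all rows. The nuclear members with PHD and bromodomain ends act as transcription cofactors. Trim28, the corepressor that zinc finger proteins of the KRAB class recruit to silence endogenous retroviruses, had the highest control mean of the TRIM genes. In control 2 Trim14 was above it, at 34.5 FPKM. Trim28 had 42.0 and 34.0 FPKM under negative control and 33.9 and 35.3 FPKM under the inhibitor. Control 1 was the high library and the other 3 lay close together. Its log2 difference was -0.12 with a 95% interval from -0.45 to 0.20 (adjusted p = 0.649), and 0.026 without control 1. Trim24 had 13.3 and 12.9 FPKM under negative control and 14.7 and 14.8 FPKM under the inhibitor, and Trim33, which acts on SMAD4, had 7.21 to 8.17 FPKM over the 4 libraries.

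Trim3, a member with NHL repeats that is best known from neurons, had 27.1 and 22.3 FPKM under negative control and 19.3 and 18.7 FPKM under the inhibitor. The groups were separate, and the log2 difference of -0.35 ± 0.13 did not pass (adjusted p = 0.224). Trim32, mutated in a human limb-girdle muscular dystrophy, ranged from 6.11 to 9.72 FPKM and Trim2 from 1.25 to 2.21 FPKM, with overlapping groups.

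Trim8, which modulates cytokine signalling and has no recognised C-terminal domain, was among the 5 most abundant TRIM genes by the mean over all 4 libraries. It had 29.0 and 28.8 FPKM under negative control and 32.1 and 34.1 FPKM under the inhibitor, a log2 difference of 0.19 ± 0.09 (adjusted p = 0.348). Trim23, which carries an ARF GTPase domain, had 7.24 and 7.93 FPKM under negative control and 9.06 and 8.19 FPKM under the inhibitor. Trim37, mutated in the human growth disorder mulibrey nanism, had 3.75 and 2.13 FPKM under negative control and 4.41 and 4.76 FPKM under the inhibitor, a log2 difference of 0.53 ± 0.24 (adjusted p = 0.309). Trim44, which lacks a RING finger, ranged from 18.1 to 20.2 FPKM with the inhibitor values just below the controls.

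Among PRY-SPRY genes with no listed interferon response, Trim35, Trim47 and Trim41 had means of 24.4, 23.1 and 20.8 FPKM, and Trim11 and Trim27 had means of 13.3 and 12.9 FPKM. Of these 5, Trim47 alone had separate groups, with 21.8 and 20.2 FPKM under negative control and 24.2 and 26.3 FPKM under the inhibitor. Trim39, Trim16, Trim68 and Trim65 lay between means of 5.87 and 7.93 FPKM with overlapping groups, and Trim62 had a mean of 1.99 FPKM. Trim47 and Trim65 overlap by 5365 bases on the same strand, so their reads may be shared. Trim14 overlaps Nans by 9852 bases and Trim28 overlaps Zbtb45 by 6137 bases on opposite strands, and the sources used here do not say whether the counting used strand.

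In 2 low genes a single control library stood apart. Trim7, which binds the glycogen primer glycogenin, had 7.10 FPKM in control 1 against 1.95 in control 2, 2.43 in inhibitor 1 and 2.06 in inhibitor 2. Its log2 difference was -0.60 ± 0.48 (adjusted p = 0.548), 0.13 without control 1 and -1.32 without control 2. Trim59, a membrane-anchored member, had 1.26 FPKM in control 2 against 4.17 in control 1, 3.24 in inhibitor 1 and 3.57 in inhibitor 2. Its log2 difference was 0.36 ± 0.40 (adjusted p = 0.666) and -0.23 without control 2. Trim13, the other membrane-anchored member, which sits in the endoplasmic reticulum, ranged from 2.79 to 4.85 FPKM with a log2 difference of 0.24 ± 0.23 (adjusted p = 0.617), and 14.5% of its 50-base stretches occur in the predicted gene Gm9359. The members nearest to the minimum were Trim67 and Trim36, with means of 1.05 and 1.19 FPKM, and the rows just under it were Trim6 and Trim45, with means of 0.952 and 0.939 FPKM. Trim36 and Trim67, which have a COS box that binds microtubules, had log2 differences of 0.05 and -0.11 (adjusted p = 0.928 and 0.798).

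Since the treatment was an inhibitor of miR-203, the 3′ untranslated regions of the TRIM genes were searched for its seed match. The mature strand miR-203-3p from RefSeq is shown with its seed, bases 2 to 8, in capitals, beside the match in Trim30b, the one risen TRIM gene with a match, with the 7 matching bases in capitals.
mmu-miR-203-3p: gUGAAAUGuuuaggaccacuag
Trim30b on chromosome 7: catgctacaatCATTTCAaggta
A match, CATTTCA, was found in the longest annotated region of 5 of 37 TRIM genes (13.5%), against 17.6% of 12194 genes tested. The 5 were Trim30b, Trim33, Trim37 and Trim67 with 1 match each and Trim56 with 2, and the Trim30b match was the one followed by an A. Trim30c had no annotated region. Of the 8 risen genes, 6 therefore had a region and no match in it, and 1 had a match. Regulation through these matches was not measured.

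The partners of the TRIM proteins were read from the same fit, with gene lists drawn up by known role and with 3.22% of all rows called higher and 0.267% called lower as the background. Of 7 TRIM family genes under other names, 4 reached the minimum level and 1 rose. This was Pml, the scaffold of nuclear bodies, with 20.9 and 20.2 FPKM under negative control and 37.8 and 42.3 FPKM under the inhibitor (log2 difference 0.93 ± 0.10, adjusted p = 0.0164). Mefv, which encodes the inflammasome protein pyrin, had 2.64 and 3.64 FPKM under negative control and 5.50 and 8.49 FPKM under the inhibitor (adjusted p = 0.127), Mid1, a microtubule-bound ligase, had a log2 difference of 0.83 (adjusted p = 0.112), and Mid2, its close relative, had 0.13 (adjusted p = 0.720).

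Of the 23 genes of the RNA and DNA sensing path on which TRIM ligases act, 6 rose, and the median log2 difference was 0.38. The RIG-I gene Ddx58, whose product is a described substrate of Trim25, had 16.5 and 21.1 FPKM under negative control and 51.9 and 61.0 FPKM under the inhibitor, a log2 difference of 1.54 ± 0.15 (adjusted p = 0.0127). Dhx58 and Ifih1, which encode the related sensors LGP2 and MDA5, rose by log2 values of 1.76 and 1.68. Irf7, Myd88 and the RNA-binding Zc3hav1 were the others, at 1.65, 0.87 and 0.82. Without the trend Myd88 did not pass (adjusted p = 0.0649), and with no minimum on the mean 2 genes of this list passed. Both inhibitor values lay above both control values in 15 of the 23, against 33.1% of all rows. They lay below them in 4, against 19.1%. Mavs was the 1 gene of the list with an unadjusted p under 0.05 as lower (log2 difference -0.35, adjusted p = 0.234).

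Of 18 ubiquitin-activating and ubiquitin-conjugating enzymes, 2 rose, with a median log2 difference of 0.21. These were Ube2l6 and Uba7, which serve the ubiquitin-like protein ISG15. Ube2l6 had 25.8 and 22.4 FPKM under negative control and 68.1 and 77.8 FPKM under the inhibitor (log2 difference 1.56 ± 0.12, adjusted p = 0.00812), and Uba7 rose by 1.12. The general enzyme Ube2e1 had 0.38 (adjusted p = 0.122), and Ube2d3, the most abundant of the list, went from 218 and 229 to 240 and 264 FPKM (adjusted p = 0.374). Of 20 silencing partners of Trim28, 2 rose, the PML body proteins Daxx (log2 difference 1.69 ± 0.17, adjusted p = 0.0129) and Morc3 (0.97, adjusted p = 0.0325), while Sumo2, the most abundant of the list, had 0.14 (adjusted p = 0.412). Of 12 deubiquitinases of innate signalling 2 rose, Usp18 (2.14, adjusted p = 0.00812), which removes ISG15, and Usp25 (0.62, adjusted p = 0.0360). Usp25 passed also with a pseudocount of 0.1 and a minimum of 5 FPKM, and in none of the other alternatives, the replicate block included (adjusted p = 0.0628). Morc3 was not past the threshold with upper quartile scaling, without the trend, with no minimum on the mean, or without either inhibitor library. Of 15 autophagy genes 0 passed with limma and 2 had an unadjusted p under 0.05. Gabarap, the most abundant of them, had a log2 difference of 0.12 (adjusted p = 0.438). Map1lc3a, a membrane mark of autophagosomes, was lowest in p, with a log2 difference of -0.47 (adjusted p = 0.0639, and past the threshold with quantile normalization or a minimum of 5 FPKM).

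Marker RNA of some cell types differed between the groups, and the share of cell content in the TRIM values was not tested. In bulk tissue fewer cells of a type and less RNA per cell cannot be told apart. The fat cell gene Adipoq had 1255 and 1303 FPKM under negative control and 1095 and 997 FPKM under the inhibitor, so the label of fat tissue holds in all 4. Over all 12345 rows, limma called 3.22% higher and 0.267% lower. An unadjusted p under 0.05 was found for 1650 rows as higher and for 734 as lower. Both inhibitor values lay above both control values in 33.1% of all rows and below them in 19.1%. Of 8 adipocyte markers 0 passed with limma, 6 had an unadjusted p under 0.05 as lower and 7 had both inhibitor values lower. Their sums were 23832 and 25017 FPKM under negative control against 20614 and 19275 FPKM under the inhibitor. Of 10 macrophage markers 2 rose, Cd68 and Fcgr1. Both inhibitor values were higher in 6 of the 10 and lower in 3, Mrc1 (log2 difference -0.39), Lyz2 (-0.23) and Csf1r (-0.18), none of which passed. The macrophage sums were 1969 and 2126 FPKM against 2374 and 2222 FPKM. Of 9 T and NK cell markers Klrb1c rose, and 3 had an unadjusted p under 0.05 as higher. Both inhibitor values were higher in 4 of the 9 and lower in 0. The T and NK cell sums were 97.4 and 40.5 FPKM against 111.0 and 132.7 FPKM. Markers of B cells and lymph node summed to 353 FPKM in control 1, 3.52 in control 2, 156.0 in inhibitor 1 and 179.8 in inhibitor 2. A short interferon response list was drawn up with earlier results of these data known, so its count is not a test. All 12 of its genes rose, with a median log2 difference of 2.02. Their sums were 498 and 649 FPKM under negative control against 2260 and 2467 FPKM under the inhibitor.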

How the data were processed

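RNA was taken from flash-frozen subcutaneous white adipose tissue, and directional libraries were made from total RNA, per the labels' protocols. TopHat, TopHat2 2.0.11, Cufflinks 2.1.1 and the build mm10 are named by the submitters' processing notes. The sources used here give no settings, annotation or strand handling. The authors deposited gene-level FPKM, so absolute depth is unknown and no counting intervals can be given. The 13 mitochondrially encoded genes held a larger share of summed FPKM under negative control (14.4% and 17.5%) than under the inhibitor (10.2% and 12.1%), which moves all other values with the groups. A scaling to a common sum without them was an alternative.

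Samples were grouped by title. Values were taken as log2(FPKM + 1), which understates changes of low genes. Rows averaging 1 FPKM or more went into a linear model (limma 3.58.1, R 4.3.3, eBayes with a trend, 5.29 total degrees of freedom), two-sided, with Benjamini-Hochberg adjustment over all 12345 rows. Nothing states that pools came from separate cohorts, so p-values measure the spread between pools. The code was tested on simulated data. Locations came from GENCODE M21 (GRCm38), which held all 38 genes, and promoters and miR-203 from RefSeq (GRCm38.p6).

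The members and lists were chosen with earlier results of these data known. The text gives log2 differences for TRIM genes past the threshold, the 5 with the highest mean over all libraries, the most abundant of each role list and the members next to the minimum. It also gives them for the rest of the cluster and the genes with an unadjusted p under 0.05, and for Trim7, Trim59 and Trim37, which were chosen after their values were seen. From each partner list genes of smallest p and the most abundant gene are named. Mavs was added after its values were seen. Proteins were not compared. The alternatives were other pseudocounts, minimum levels and scalings, no trend, a replicate block and leaving out each library.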

Additional observations from a re-analysis of the deposited data

How the results depend on the processing

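The 8 TRIM calls were all kept with a pseudocount of 0.1, a minimum of 5 FPKM, 3 other scalings, the replicate block and without either control; without a trend 7 were kept, and with no minimum on the mean 3. Leaving out 1 library gave 0 to 9 TRIM genes higher and 0 to 1 lower, 0 to 1 for TRIM family genes under other names, 0 to 6 for the sensing path, 0 to 2 for ubiquitin enzymes, 0 to 2 for Trim28 partners and 0 to 2 for deubiquitinases. Each 0 of genes higher came without an inhibitor library, where the residual spread rests on the controls alone. Without a control library the residual spread rests on the inhibitor libraries alone. With no minimum the 5 lists gave 0, 2, 1, 0 and 1 higher. The sensing path gave 5 without a trend. Trim28 partners gave 1 with upper quartile scaling and 1 without a trend. Deubiquitinases gave 1 with quantile normalization, upper quartile scaling, a common sum without mitochondrial genes, the replicate block, no trend, and without control 2. Map1lc3a made autophagy genes 1 lower with a minimum of 5 FPKM and 1 with quantile normalization.

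The TRIM median of 0.18 ranged from 0.07 (quantile normalization) to 0.25 (without control 1). The median over all rows tested moved as well, from 0.07 in the main fit to -0.03 with quantile normalization and 0.10 without control 1. Quantile normalization gave 326 rows higher and 92 lower over the whole table, or 78.0% of calls higher against 92.3%. Signs were followed through the alternatives for the 21 TRIM genes with a log2 difference in the text, and not for the rest. Among these, signs changed for genes that were not past the threshold with all libraries. Without 1 library, Trim28 ranged from -0.27 to 0.026, Trim13 from -0.020 to 0.51, Trim7 from -1.32 to 0.13, Trim59 from -0.23 to 0.96 and Trim36 from -0.10 to 0.19. Trim36 was at -0.026 with quantile normalization and at -0.014 with upper quartile scaling. The cause of these changes was not tested. Same-numbered libraries did not deviate together (r = -0.0058 across genes). With 2 libraries per group that value cannot decide whether the numbers pair the samples, and the labels do not say. With the replicate block 333 rows were higher and 21 lower, against 397 and 33.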

Other observations

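The 29 TRIM rows under the minimum of 1 FPKM were not tested in the comparison. Of these, 13 were listed at 0 in all 4 libraries, among them Trim54, Trim55 and Trim63, ligases of the striated muscle sarcomere. Trim72, a membrane repair protein of muscle, had 0 to 0.249 FPKM. Markers of skeletal muscle summed to 3.46 and 9.20 FPKM under negative control and 7.03 and 6.71 FPKM under the inhibitor. Trim38, a listed interferon-related gene, was at 0 in all 4 libraries, and a value of exactly 0 can be a failed estimate.

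Trim46, an axonal microtubule protein, had 1.63 FPKM in control 1 against 0.305 in control 2, 0.337 in inhibitor 1 and 0.939 in inhibitor 2, so control 1 was its highest library, as it was for Trim7. Trim45, close to the minimum, had 0.496 FPKM in control 2 and 1.03 FPKM or more in the other 3, so control 2 was its lowest library, as it was for Trim59. Trim29, an epithelial gene, had 0.0966 to 0.397 FPKM, and epithelial markers summed to 3.54 to 3.77 FPKM with Krt8 at 0.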
